A study of Homo sapiens with 6 samples.

Results

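The 10 genes described here are 6 interferon regulatory factors (IRF1, IRF2, IRF3, IRF4, IRF5 and IRF8), the ETS factors SPI1 (PU.1) and SPIB, and the bZIP factors BATF and BATF3. They were taken by symbol from the 20667 symbols measured in every library, and all 10 were present. The rule uses no measured value, but the set was chosen with earlier results of these data known. The cells were U2932, a lymphoma line of the activated B-cell type (ABC-DLBCL). One group stably expressed an shRNA against the kinase ROCK2 (ROCK2 KD), the other a scrambled shRNA (Scr shRNA), and each group had 3 libraries numbered as replicates 1, 2 and 3. Both groups were infected with lentivirus carrying a pLKO.1 vector with puromycin resistance and tGFP, so the controls share the vector and the selection. A single ROCK2 hairpin was sequenced in a single cell line, and the labels do not say whether equal replicate numbers mark separate infections or separate cultures. The p values therefore measure the spread between these libraries, which may be technical. The comparison asks how the transcripts of the IRF family and of its DNA-binding partners stand after ROCK2 silencing.

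IRF proteins share an N-terminal DNA-binding domain that reads a GAAA core. IRF4 and IRF8 bind that core weakly on their own, and are held on DNA by an ETS partner (PU.1 or SPIB) at composite ETS-IRF elements (EICE) or by BATF-JUN dimers at composite AP-1-IRF elements. In B cells, IRF8 and PU.1 are typical of the germinal centre stage, IRF4 rises on exit towards the plasma cell, and ABC-DLBCL is known for high IRF4, SPIB and BATF.

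3 designed sequences belong to this system. The hairpin target is shown because it defines the knockdown, and the other 2 are the sense strands of oligonucleotides the study used to precipitate IRF4. In the guide strand, capitals mark the seed (bases 2 to 8). In the oligonucleotides, capitals mark the reverse complement of each GAAA core.
ROCK2 shRNA target: ccttgatgtctgtctattatt
ROCK2 shRNA guide strand: aATAATAGacagacatcaagg
ELL2 Promoter oligonucleotide: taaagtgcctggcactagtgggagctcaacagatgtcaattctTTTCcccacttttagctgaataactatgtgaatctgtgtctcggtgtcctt
IL10 Enhancer oligonucleotide: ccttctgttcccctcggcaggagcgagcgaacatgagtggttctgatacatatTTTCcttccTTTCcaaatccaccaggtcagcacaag
The target matched GRCh37 once, at chr2:11322581-11322601 on the minus strand, in an exon of ROCK2. The ELL2 oligonucleotide matched at chr5:95295776-95295869 in an intron of ELL2, 1733 bases downstream of the annotated gene start, and holds 1 GAAA core. The IL10 oligonucleotide matched at chr1:206957662-206957750, in an intron of IL19 and upstream of the IL10 start (position -9820), and holds 2 GAAA cores. Neither oligonucleotide holds the letters GGAANNGAAA, GAAANNGAAA or TGANTCA on either strand.

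The values are FPKM, fragments divided by transcript length and by the library's mapped total, and were scaled between libraries by a trimmed mean of log ratios. The deposited FPKM of a library summed to between 208289 and 480612, and the sums of both replicate 1 libraries were the lowest. FPKM do not state read numbers. The steps between the lowest values put the depth of the other 5 libraries between 71.4% and 92.8% of that of Scr shRNA replicate 3, and within a pair the depth differed most in replicate 2 (77.5% in ROCK2 KD and 92.8% in Scr shRNA). The markers were those of B cells: 8 of 8 B cell markers passed the filter on low values, against 1 of 11 myeloid and dendritic cell markers (CD1C) and 0 of 8 T and NK cell markers. MPO and FCGR3A were listed at 0 in every library. The summed B cell markers lay between 595 and 1320 in ROCK2 KD and between 421 and 1333 in Scr shRNA libraries. ROCK2 itself, the check on the labels, was at 3.52, 4.65 and 1.13 scaled FPKM in ROCK2 KD replicates 1, 2 and 3 and at 5.54, 6.18 and 5.28 in Scr shRNA. The groups did not overlap, as for 1.78% of all genes tested. The log2 difference was -0.81 (SE 0.23), and the reduction was deepest in replicate 3 (-1.56). In the limma fit with the replicate number as a block its unadjusted p was 0.00912 and its adjusted p 0.788. The silenced gene itself was therefore not called.

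Read as levels per transcript length, the members fell into 3 tiers. IRF4, IRF3, IRF8, SPIB and BATF were abundant, IRF2, SPI1, IRF1 and IRF5 were moderate, and BATF3 was low. IRF4 ranged from 25.7 to 109 scaled FPKM and stood between percentiles 91.5 and 97.1 of all symbols, whereas IRF5 stood between percentiles 62.8 and 75.6. SPI1 was below its relative SPIB in every library. By the geometric mean of the deposited FPKM the order was IRF4, IRF3, IRF8, SPIB, BATF, IRF2, SPI1, IRF1, IRF5 and BATF3. Among neighbours, BATF over IRF2, IRF2 over SPI1 and IRF5 over BATF3 held in 6 of 6 libraries. The other 6 neighbouring pairs changed places in at least 2 libraries, so neighbours within the first 5 genes, and within SPI1, IRF1 and IRF5, did not differ beyond their spread.

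**Figure D1:**
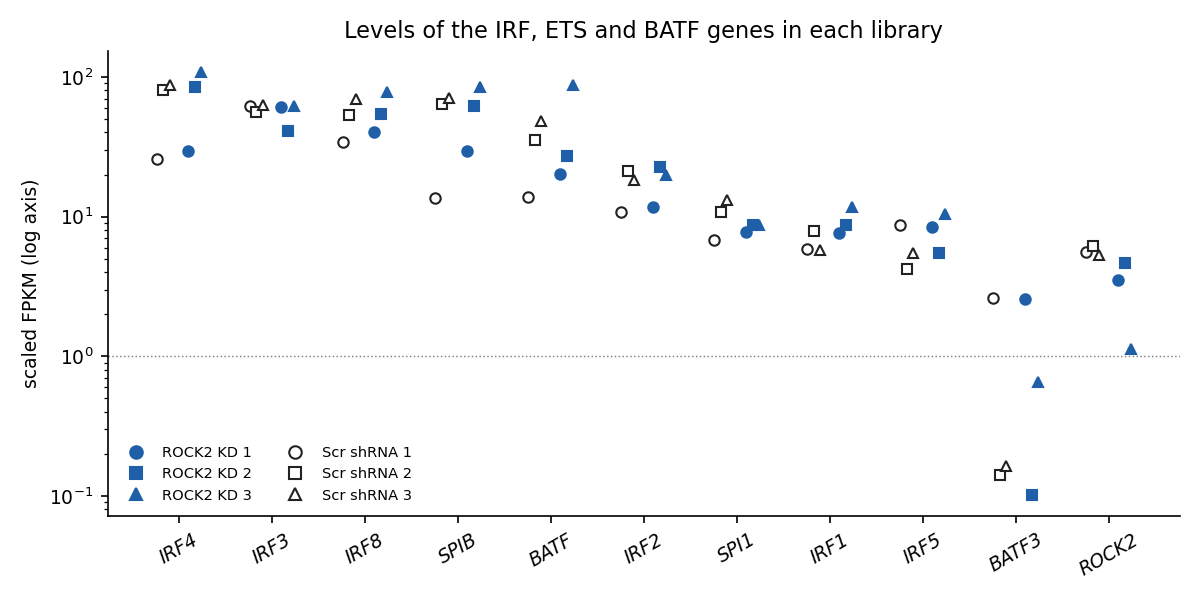
Scaled FPKM of each member and of ROCK2 (vertical log axis) in the 3 Scr shRNA libraries (open symbols) and the 3 ROCK2 KD libraries (filled), with circles, squares and triangles for replicates 1, 2 and 3 and a dotted line at an FPKM of 1. ROCK2 is the only gene shown whose groups do not overlap, and for IRF4, SPIB and BATF the circles of both groups lie below the squares and triangles.

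Of the 10 members, 9 reached an FPKM of 1 in 3 or more libraries, the filter for testing, and BATF3 did not. In the limma fit with the replicate number as a block, 0 of the 9 had an adjusted p under 0.05, where 0% of all 10526 genes tested did. By fitted value 7 of the 9 were higher in ROCK2 KD (IRF1, SPIB, IRF5, BATF, IRF4, IRF8 and IRF2) and IRF3 and SPI1 were lower, with a median log2 difference of 0.19, against -0.00 over all genes. The split of 7 to 2 held with any replicate left out, while the median ran from 0.10 without replicate 1 to 0.25 without replicate 2. ComBat, the batch correction the study names, was also applied in place of the block, to log2 FPKM and without the condition. With it 2.82% of genes were called and again 0 of the 9 members. The study worked on counts, so its own procedure was not repeated. At an unadjusted p under 0.05 in the blocked fit there was 1 member, IRF1, against 5.43% of all genes. This count was 0 without replicate 3, with no replicate block or with no filter, 3 without replicate 1 or 2, and 5 with ComBat. Of all 10526 genes, 402 were under 0.05 without replicate 3, 28 with no block, 917 without replicate 1 and 582 without replicate 2. With ComBat 2137 were, against 572 in the blocked fit, and with no filter 801 of 18785. In all 3 pairs, 4 members had the higher value in ROCK2 KD (background 13.4%) and 1, IRF3, was lower in all 3 (background 11.7%). No member had groups that did not overlap, against 1.78% of all genes. In these bulk libraries, a change in the number of cells that express a gene and a change in RNA per cell cannot be told apart.

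The study reports that ROCK2 phosphorylates the IRF4 protein, which transcript levels do not measure. IRF4 had 29.4, 84.5 and 109 scaled FPKM in ROCK2 KD replicates 1, 2 and 3 and 25.7, 80.8 and 87.0 in Scr shRNA. Each ROCK2 KD library was slightly above its partner, while both replicate 1 libraries lay far below the rest. The log2 difference was 0.19 (SE 0.10, 95% interval -0.05 to 0.43, adjusted p = 0.950), which is 1.14-fold, and it was 0.13 without replicate 3. IRF8, its closest relative, had 40.3, 54.4 and 77.4 in ROCK2 KD and 34.1, 53.1 and 69.4 in Scr shRNA. It too was higher in each pair, by a smaller amount than IRF4 in replicates 2 and 3, and its log2 difference was 0.14 (SE 0.10, 95% interval -0.09 to 0.37, adjusted p = 0.957), or 0.09 without replicate 1. Neither p passed the threshold, which does not show that the levels were alike: the intervals run up to 0.43 for IRF4 and 0.37 for IRF8.

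The ETS partners had fitted differences of opposite sign. SPIB, which with PU.1 recruits IRF4 and IRF8 to composite elements, had 29.5, 61.7 and 84.6 scaled FPKM in ROCK2 KD and 13.7, 63.7 and 70.9 in Scr shRNA. Most of its log2 difference of 0.42 (SE 0.20, adjusted p = 0.917) came from replicate 1, where the pair differed by 1.05, and the replicate 2 pair went the other way (-0.05). Without replicate 1 the difference was 0.10. SPI1 had 7.71, 8.69 and 8.67 in ROCK2 KD and 6.80, 10.8 and 13.2 in Scr shRNA. Its values varied less within ROCK2 KD (SD 0.561) than within Scr shRNA (SD 3.23), and its log2 difference was -0.23 (SE 0.15, adjusted p = 0.956). The replicate 1 pair was higher in ROCK2 KD, and the difference was -0.42 without replicate 1 and -0.06 without replicate 3.

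BATF, the AP-1 partner that forms dimers with JUN proteins, had 20.1, 27.3 and 87.7 scaled FPKM in ROCK2 KD and 13.9, 35.2 and 48.1 in Scr shRNA. Both groups were highest in replicate 3 and lowest in replicate 1, and the groups overlapped. The pair differences were 0.51, -0.35 and 0.85 on the log2 scale, so the replicates did not share a direction, and the fitted difference was 0.34 (SE 0.21, adjusted p = 0.956). It was 0.08 without replicate 3 and 0.68 without replicate 2. BATF3, best known from cross-presenting dendritic cells, was measurable in replicate 1 (2.58 in ROCK2 KD and 2.61 in Scr shRNA). It was at 0.102 and 0.649 in ROCK2 KD replicates 2 and 3 and at 0.140 and 0.164 in Scr shRNA. With only the replicate 1 pair above an FPKM of 1 it was not tested, and its mean log2 difference of 0.15 rests on the replicate 3 pair (0.50).

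IRF1, the interferon-induced activator, had 7.68, 8.70 and 11.7 scaled FPKM in ROCK2 KD and 5.83, 7.91 and 5.79 in Scr shRNA. Every ROCK2 KD library was above its partner, and ROCK2 KD replicate 1 lay just below Scr shRNA replicate 2, the only overlap between the groups. The log2 difference of 0.46 (SE 0.16, 95% interval 0.08 to 0.84) was 1.37-fold and the largest of the members, with an unadjusted p of 0.0249 from limma and an adjusted p of 0.870. It was largest in the replicate 3 pair (0.90), where ROCK2 was lowest, and without replicate 3 it was 0.23. IRF2, which competes with IRF1 for the same sites, had 11.8, 22.7 and 19.7 in ROCK2 KD and 10.8, 21.2 and 18.4 in Scr shRNA. Its pair differences of 0.12, 0.09 and 0.10 were the most even of the members, and its fitted difference was 0.10 (SE 0.10, adjusted p = 0.974).

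IRF3, which is present before infection and is activated by TBK1, had 61.0, 40.8 and 62.4 scaled FPKM in ROCK2 KD and 62.0, 55.8 and 62.9 in Scr shRNA. The pairs of replicates 1 and 3 differed by -0.02 and -0.01 on the log2 scale, and the fitted difference of -0.16 (SE 0.12, adjusted p = 0.968) rests on replicate 2 (-0.44). Without replicate 2 it was -0.02. IRF5, which acts below Toll-like receptors and MYD88, had 8.35, 5.51 and 10.5 in ROCK2 KD and 8.64, 4.20 and 5.46 in Scr shRNA. Its log2 difference was 0.37 (SE 0.17, adjusted p = 0.917) and again largest in the replicate 3 pair (0.83). It was 0.14 without replicate 3 and 0.58 without replicate 1.

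**Figure D2:**
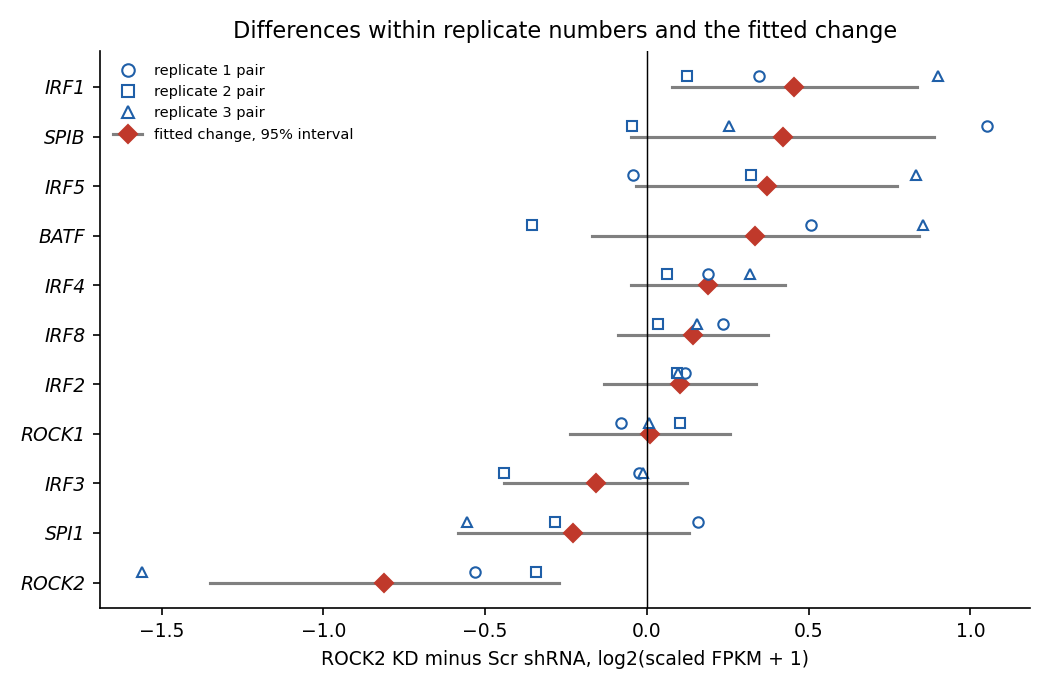
ROCK2 KD minus Scr shRNA on the log2(scaled FPKM + 1) scale for the 9 tested members, ROCK2 and ROCK1. Open symbols are the 3 same-numbered pairs, the diamond is the fitted difference and the grey bar its 95% interval. The bars of IRF1 and ROCK2 leave 0 out, those of the other members cross it, and the replicate 3 triangle is the farthest from 0 for IRF1, IRF5, BATF, SPI1, IRF4 and ROCK2.

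Several members differed widely between replicate numbers. By the F test of the same limma fit, 6 of the 9 differed between replicate numbers (IRF2, IRF4, IRF5, IRF8, SPIB and BATF), where 56.7% of all genes did, so the count is near the background. The size was not evenly spread: the median range was 0.90 log2 units over the members and 0.58 over all genes tested. SPIB, BATF and IRF4, which are known to be high in ABC-DLBCL, ranged over 1.89, 1.90 and 1.79 log2 units, larger than 97.2%, 97.3% and 96.7% of the genes tested. IRF4 averaged 27.6 scaled FPKM in replicate 1, 82.6 in replicate 2 and 97.8 in replicate 3 (limma F test, adjusted p = 0.000240). SPIB averaged 21.6, 62.7 and 77.7 in the same order (adjusted p = 0.00165), and BATF 16.99, 31.3 and 67.9 (adjusted p = 0.00282).

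Replicate 1 stood apart in direction too. IRF2, IRF4, IRF8, SPI1, SPIB and BATF were lowest in replicate 1 in both groups, and BATF3 was highest there in both groups, with each of the 3 scalings tried (trimmed mean, median of ratios and none). The share of all genes with such an order was not counted, so the order cannot be called particular to the members. IRF7 and IRF9, which carry the type I interferon response, were also highest in replicate 1 in both groups with trimmed mean and median of ratios scaling, but not in the deposited FPKM. Without replicate 1, the ranges of IRF4, SPIB, IRF2 and IRF8 were 0.23, 0.30, 0.19 and 0.44. They lost their calls, as did IRF5 (0.57) and BATF, whose range was still 1.04 (adjusted p = 0.0518). Over all genes, 855 were called in that setting and 5966 with all replicates. B cell markers moved with the replicate number as well: 7 of 8 were called, with a median range of 1.37, and 7 of 7 plasma cell markers were, with a median range of 1.06. Without replicate 1, 0 of the 8 and 0 of the 7 were called. The part of these markers in the members' spread was not tested.

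**Figure D3:**
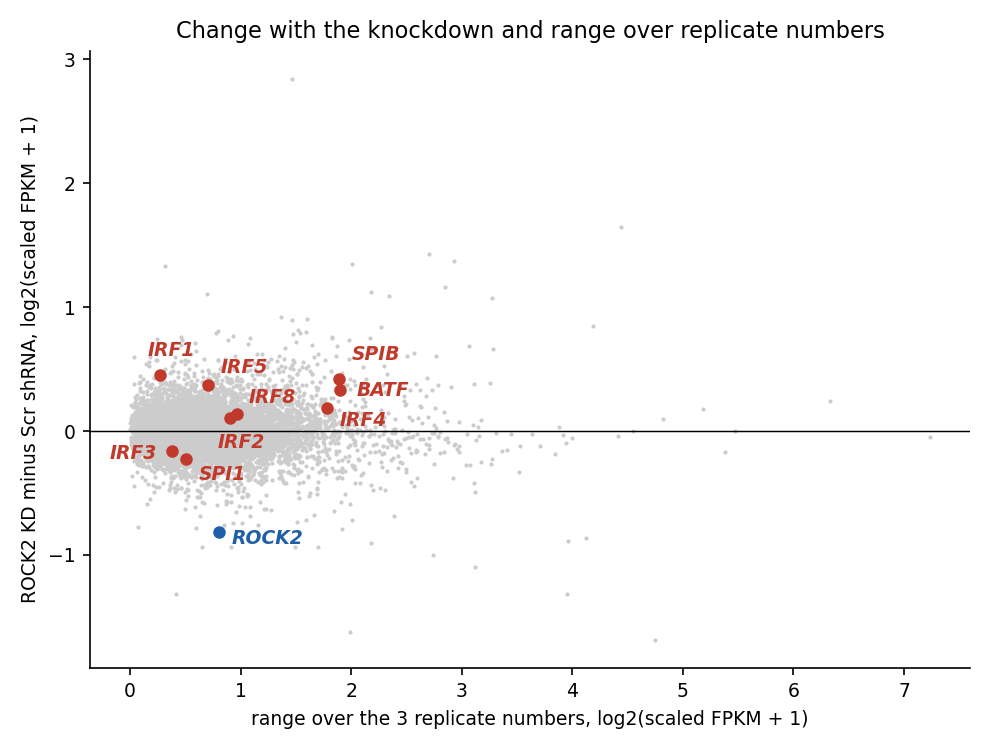
Fitted ROCK2 KD minus Scr shRNA difference (vertical) against the range of the mean level over the 3 replicate numbers (horizontal), both on the log2(scaled FPKM + 1) scale, for the 10526 genes tested (grey), the 9 tested members (red) and ROCK2 (blue). SPIB, BATF and IRF4 lie far to the right at ranges of 1.79 to 1.90, IRF1 lies at a range of 0.27 with the largest difference of the members, and ROCK2 lies below all members at -0.81.

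Ratios between 2 members of the same library do not depend on the scaling between libraries except through the pseudocount, and they describe the balance between partners or competitors. The log2 ratio of SPIB to SPI1 was 1.81, 2.69 and 3.15 in ROCK2 KD replicates 1, 2 and 3 and 0.91, 2.46 and 2.34 in Scr shRNA. The ROCK2 KD value exceeded its partner in 3 of 3 pairs, by 0.65 on average (SE 0.21), and each pair left out in turn gave between 0.52 and 0.85. The log2 ratio of IRF1 to IRF2, activator to competitor, was -0.56, -1.29 and -0.71 in ROCK2 KD and -0.79, -1.32 and -1.51 in Scr shRNA. It too was higher in 3 of 3 pairs, by 0.35 on average (SE 0.23), most of it from replicate 3 (0.80). Left-out pairs gave 0.13 (without replicate 3) to 0.52 (without replicate 2). An exact two-sided sign permutation test over 3 pairs cannot give a p below 0.25, which is the value of both ratios, and over the 6 ratios tested the Benjamini-Hochberg adjusted value was 0.75.

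The remaining 4 ratios did not share a direction over the pairs. IRF4 to IRF8 differed by 0.05 (SE 0.06) with pair differences of -0.05, 0.03 and 0.16, although the ratio itself ran from -0.44 in a replicate 1 library to 0.63 in a replicate 2 library. IRF4 to SPIB differed by -0.23 (SE 0.32), which came from replicate 1 alone (-0.86). IRF4 to BATF differed by -0.15 (SE 0.29). BATF to BATF3 differed by 0.19 (SE 0.25), and -0.07 with a pseudocount of 0.1. BATF3 was below 1 FPKM in 4 libraries.

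**Figure D4:**
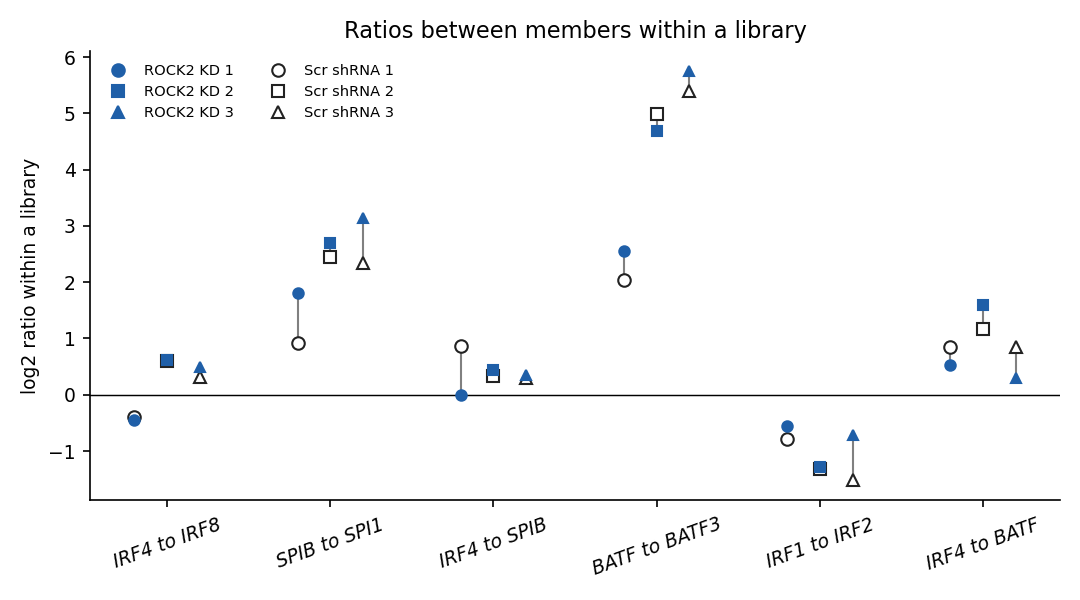
Log2 ratio of 2 members within a library (vertical) for 6 ratios, with each grey line joining the Scr shRNA library (open) to the ROCK2 KD library (filled) of the same replicate number. SPIB to SPI1 and IRF1 to IRF2 have the filled symbol above the open one 3 of 3 times, and BATF to BATF3 runs from 2.04 to 5.75 over the libraries.

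The genes whose pattern over the 6 libraries was most like that of IRF4 were VCP, ATP5G3, FUT8, UQCR10 and MRPL54, at a root mean square distance of 0.0857 to 0.125 log2 units from its centred values, where the median over 3597 genes of similar level was 0.556. For IRF8 they were OXA1L, CYB5R4, ELK1, MTHFS and TAF10 (0.0396 to 0.0549, median 0.3004 over 4064 genes). For SPIB they were UCP2, ADAM19, TNS3, LOXL2 and ARL6IP4 (0.0915 to 0.155, median 0.679 over 4432 genes). IRF4 was the 27th nearest gene to SPIB, at 0.256, and SPIB the 194th nearest to IRF4. Distances over 6 libraries are descriptions, and these libraries share the replicate structure given above.

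Upstream and partner genes were counted from lists that were chosen with earlier results known, and no gene of any list had an adjusted p under 0.05 in the blocked limma fit. With ComBat in place of the block, 1 of 14 other ETS genes (ETS2), 2 of 17 sensor or adaptor genes (CXorf21 and TICAM1) and 1 of 12 B cell targets (IL10) were called. Over all genes tested 2.82% were called in that setting. Of the 91 tested genes of these 9 lists, 54.9% kept the sign of their fitted value with each replicate left out in turn, where 50.3% of all genes tested did, so the share is near the background. Among the genes named below, the signs of IRF9, ERF, ETS1, JUNB, JUND, POU2F1, IKZF3, STAT2, TYK2, RELA, RELB, BCL6, XBP1 and ELL2 turned in at least 1 of these settings, and their values describe these libraries with all replicates. Among the other IRF genes and IRF2 binding proteins, 3 of 5 tested had a higher and 2 a lower fitted value in ROCK2 KD (median 0.07), from IRF9 at 0.31 (SE 0.26, and -0.12 without replicate 3) and IRF2BP2, a corepressor partner of IRF2, at 0.13 (SE 0.10) to IRF2BP1 at -0.22 (SE 0.12) and IRF2BPL at -0.11 (SE 0.12). Without replicate 3 the same list had 1 higher and 4 lower values (median -0.15). Of the other ETS genes, 14 of 17 were tested, 10 higher and 4 lower (median 0.06, and from 0.03 without replicate 3 to 0.12 without replicate 1). The largest were ETV5 (0.57, SE 0.20, unadjusted p = 0.0260 from limma, and 0.25 without replicate 2) and ETS2 (0.34, SE 0.11, unadjusted p = 0.0213), and the lowest were ERF (-0.12, SE 0.13) and ETS1 (-0.09, SE 0.16). SPIC, the third PU.1 relative, was at or near 0 in every library.

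Of the bZIP genes that can stand beside or against BATF, 7 of 16 were tested, 2 higher and 5 lower (median -0.07, and -0.15 without replicate 1), with BACH1 at 0.21 (SE 0.12), NFIL3 at 0.04 (SE 0.10), MAFK at -0.29 (SE 0.13) and MAFG at -0.15 (SE 0.11). The JUN partners JUNB and JUND had fitted values of -0.10 (SE 0.14) and -0.03 (SE 0.16), and JUN itself did not pass the filter. The IKAROS and octamer cofactors were split 4 to 4 (median -0.01), from IKZF1 at 0.24 (SE 0.11) and POU2F1 at 0.08 (SE 0.12) to FKBP4 at -0.17 (SE 0.13) and IKZF3 at -0.16 (SE 0.21), and 8 of 8 were called between replicate numbers (background 56.7%), and 1 without replicate 1, where 855 of all genes were. The median was -0.15 without replicate 1 and 0.09 without replicate 3. Sensors, adaptors and kinases that activate IRF3, IRF5 and IRF7 were split 8 to 9 (median -0.00). Here the endosomal RNA sensor TLR7 had 0.57 (SE 0.21, unadjusted p = 0.0305 from limma, and 0.23 without replicate 3), CXorf21, which links SLC15A4 to IRF5, had 0.42 (SE 0.12, unadjusted p = 0.0103), the adaptor TICAM1 had -0.30 (SE 0.11, unadjusted p = 0.0247) and MB21D1, the DNA sensor cGAS, had -0.27 (SE 0.14). TBK1, the kinase of IRF3, was at 0.06 (SE 0.11). The split was 9 to 8 with no scaling or without replicate 1, and 10 to 7 without replicate 2 or 3 (median 0.04 without replicate 3).

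The interferon receptor, JAK and STAT genes were 9 higher and 1 lower of 10 tested (median 0.17), with 2 at an unadjusted p under 0.05 (background 5.43%), and 0 without replicate 3, with no replicate block or with no filter. Without replicate 3 the list had 7 higher and 3 lower values (median 0.075). JAK2 had 0.35 (SE 0.14), STAT2 0.01 (SE 0.13) and TYK2 -0.18 (SE 0.16). Of the NF-kB and BCR activation genes upstream of IRF4, 6 were higher and 4 lower of 10 (median 0.10, and 0.21, 0.02 and 0.17 without replicates 1, 2 and 3), from REL at 0.33 (SE 0.12) and NFKBIA at 0.33 (SE 0.15, and 0.15 without replicate 3) to RELB at -0.09 (SE 0.12) and RELA at -0.09 (SE 0.11).

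Genes known as targets of IRF1, IRF2 or IRF9 had the highest median of the lists. All 8 that were tested of 13 had a higher fitted value in ROCK2 KD (median 0.31), 6 of them in all 3 pairs (background 13.4%), and 5 had an unadjusted p under 0.05 (background 5.43%). That last count was 0 without replicate 3 and 0 with no replicate block. The largest were MX1, an antiviral GTPase, at 1.09 (SE 0.45, with a pair difference of 2.72 in replicate 3 and 0.28 without it) and TAP1, the peptide transporter, at 0.53 (SE 0.17, also 0.28 without replicate 3). With any of the 3 replicates left out, 8 of 8 stayed higher, with medians from 0.25 to 0.45. The smallest were CD274 at 0.14 (SE 0.12) and NLRC5 at 0.27 (SE 0.13). These genes also differed widely between replicate numbers, with 7 of 8 called (background 56.7%) and a median range of 1.97 log2 units (0.58 over all genes tested). Without replicate 1, 4 of the 8 were called, where 855 of all 10526 genes were. Of the B cell genes known as IRF4, IRF8 or SPIB targets, 12 of 14 were tested, 8 higher and 4 lower (median 0.14, and 0.26 without replicate 2). The 4 with an unadjusted p under 0.05 were BHLHE40 (0.71, SE 0.17), IL10 (0.49, SE 0.12), CIITA (0.42, SE 0.15) and ZEB2 (0.38, SE 0.13), which the study itself singled out from these samples, so they are no independent evidence of a direction. With no replicate block, 0 of the 12 had an unadjusted p under 0.05. BCL6 was at -0.24 (SE 0.27) and XBP1 at -0.16 (SE 0.16), but BCL6 was at 0.22 without replicate 3 and XBP1 at 0.04 without replicate 2. Of the 2 genes whose IRF4 oligonucleotides are printed above, IL10 averaged 1.31 ± 0.887 scaled FPKM (SD, n = 3) in ROCK2 KD and 0.616 ± 0.505 in Scr shRNA, and ELL2 had a fitted difference of 0.11 (SE 0.18).

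**Figure D5:**
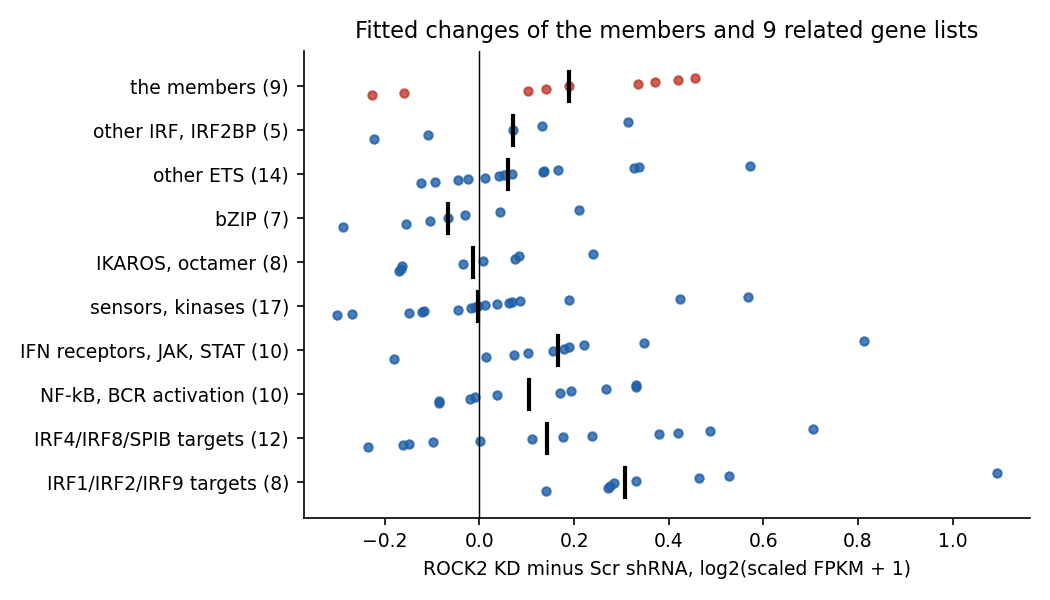
Fitted ROCK2 KD minus Scr shRNA differences on the log2(scaled FPKM + 1) scale for the tested members (red) and for the tested genes of 9 related lists (blue, number tested in brackets), with a black bar at each median. The median of the IRF1, IRF2 and IRF9 targets is the highest at 0.31, that of the members is 0.19, and those of the bZIP, IKAROS and sensor lists lie at or just below 0.

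Promoter sequences were available for IRF1, IRF4, IRF5, IRF8, SPIB and BATF (RefSeq, GRCh38.p14, the 250 bases before an annotated start). They were searched on both strands for GAAANNGAAA (interferon-stimulated response element), GGAANNGAAA (EICE), TTCNNNGAA (STAT element, GAS), GGGNNTTTCC (a narrow form of kappa B) and TGANTCA (AP-1). A match is a description of letters and not a site. The promoters of IRF1 and BATF are printed because the former belongs to the member with the largest difference and holds STAT letters, and the latter to the tested member with the widest range over replicate numbers. Capitals mark the matches.
IRF1 promoter 1: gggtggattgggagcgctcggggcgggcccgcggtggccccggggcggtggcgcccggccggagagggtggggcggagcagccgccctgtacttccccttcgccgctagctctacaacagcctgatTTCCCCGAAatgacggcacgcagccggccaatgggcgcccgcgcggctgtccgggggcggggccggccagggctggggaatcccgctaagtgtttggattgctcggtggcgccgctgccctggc
BATF promoter 1: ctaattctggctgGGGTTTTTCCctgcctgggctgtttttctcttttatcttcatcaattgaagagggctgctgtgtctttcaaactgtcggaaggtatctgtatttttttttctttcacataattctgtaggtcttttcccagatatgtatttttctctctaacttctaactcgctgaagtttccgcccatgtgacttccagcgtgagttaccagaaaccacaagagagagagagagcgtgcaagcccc
The IRF1 stretch lies at chr5:132490774-132491023 on the minus strand and holds 1 TTCNNNGAA match, which 6.57% of 35116 promoters hold. The BATF stretch lies at chr14:75522219-75522468 on the plus strand and holds 1 GGGNNTTTCC match, which 1.73% hold. 1 of the 4 IRF5 starts, with its stretch at chr7:128940420-128940669, holds TTTCGTTTCC, the reverse of GGAANNGAAA, which 2.41% hold. The stretches of IRF4, IRF8 and SPIB hold none of the 5 motifs in the letters searched. Other forms of these elements, kappa B among them, were not searched, so unmarked stretches may hold them.

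The seed of the ROCK2 guide strand pairs with CTATTAT in a transcript, which was found in at least 1 annotated transcript of 24.9% of 9662 tested genes. Among the members it occurred in IRF1, in 1 of 50 transcripts, and the full target occurred in ROCK2 alone. Whether seed pairing plays a part in any value was not tested. In GRCh37 with GENCODE annotation, IRF1 (chr5:131776132-131844411, minus strand) overlaps IRF1-AS1 and others on the opposite strand, IRF3 (chr19:50162826-50169132, minus strand) overlaps BCL2L12 on the opposite strand, and SPIB (chr19:50922195-50934571, plus strand) overlaps a protein-coding gene on the same strand. IRF2 overlaps SNORD79 on the opposite strand and a lncRNA on the same strand, and BATF3 overlaps RNU6-423P on the opposite strand. Whether the FPKM used strand is not given in the sources used here, so reads of these partners cannot be told apart from reads of the members. IRF4 (chr6:391739-411443, plus strand), IRF8 (chr16:85932722-85956212, plus strand), IRF5 (chr7:128577511-128590092, plus strand), SPI1 (chr11:47376411-47400098, minus strand) and BATF (chr14:75988798-76013336, plus strand) overlap no annotated gene.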

How the data were processed

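RNA-seq libraries of U2932 cells (3 ROCK2 KD, 3 Scr shRNA) were analysed from the FPKM the authors deposited, 1 value per symbol for 20667 symbols. Per the labels and the study's methods, total RNA was made into Nextera libraries, paired reads were aligned to hg19 with STAR and FPKM were computed with Cufflinks. FPKM hold no counts, so no count test was run and no counting interval is given. Cufflinks assigns shared fragments by an estimate, which makes overlapping genes uncertain. The authors named ComBat on the replicate before limma on counts.

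Groups and replicate numbers came from the sample titles. Libraries were scaled with trimmed means of their log ratios (0.3 of ratios and 0.05 of levels trimmed). Genes reaching an FPKM of 1 in 3 or more libraries were kept (10526), and limma 3.58.1 in R 4.3.3 was fitted to log2(scaled FPKM + 1) with the replicate number as a block, a variance trend, two-sided tests and Benjamini-Hochberg adjustment at 0.05 over all genes tested. Fold changes on this scale understate changes of low genes. The pairing rests on the replicate numbers in the labels and the study's replicate batch correction: deviations from the group mean correlated between libraries of equal number (r = 0.855, 0.785 and 0.741 across genes, against -0.65 to 0.06 for other pairs). The fit was checked on simulated data, and the absence of a call does not exclude differences of the members' size. Ratios were tested by exact sign permutation. Python 3.11.15, pandas 2.3.3, numpy 2.4.6, scipy 1.17.1 and matplotlib 3.10.9 were used. Positions and transcripts came from GRCh37 with GENCODE, promoters from RefSeq (GRCh38.p14), and the designed sequences from the study's supplement.

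The members and gene lists were chosen with earlier results of these data known. Named genes are all members, ROCK2, ROCK1, the 2 highest and 2 lowest fitted differences of each list (any gene past the threshold was to be named, and there was none), and the 5 genes most like IRF4, IRF8 and SPIB. JUNB, JUND, JUN, SPIC, IRF7, STAT2, TBK1, CIITA, ZEB2 and ELL2 were added after their values were seen where the rule did not name them, and an item that the rule names is not reported here. Alternatives covered the block, ComBat, pseudocount, filter, scaling, trend and each replicate left out. A ratio of deposited FPKM without a pseudocount was added after seeing the data.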

Additional observations from a re-analysis of the deposited data

How the results depend on the processing

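Direction and side of the threshold held for the log2 differences of all 9 tested members under each alternative run. In this balanced design the block, the variance trend and the filter cannot change a fitted difference. Direction was therefore fixed in advance in those settings and open only in the others. With ComBat on the replicate number and no replicate block, 297 genes were called (168 higher and 129 lower in ROCK2 KD, 2.82% of those tested), none of them a member, and the adjusted p of the members ran from 0.0950 (IRF1) to 0.490 (BATF). ComBat removes the replicate means before a fit that does not count them. With no replicate block 0 genes were called and 28 had an unadjusted p under 0.05, against 572 with it, and the blocking changed no member's call. With each replicate left out in turn (both libraries of the number), between 0 and 12 genes were called (12 without replicate 1, 4 without replicate 3), and 855 to 5563 between replicate numbers. The range over replicates then ran from 0.0033 to 0.27 for IRF1, 0.19 to 0.90 for IRF2, 0.027 to 0.38 for IRF3, 0.23 to 1.79 for IRF4, 0.14 to 0.71 for IRF5, 0.44 to 0.96 for IRF8, 0.13 to 0.51 for SPI1, 0.30 to 1.89 for SPIB and 0.85 to 1.90 for BATF. Calls were lost without replicate 1 by IRF2, IRF4, IRF5, IRF8, SPIB and BATF and without replicate 2 by IRF5, and SPI1 was called without replicate 2. With no scaling, IRF1 (0.77), IRF3 (0.52) and SPI1 (0.95) were called between replicate numbers and IRF5 (0.52) was not, and IRF5 was not with no filter (0.71). Over the left-out replicates the difference in ratio ran from -0.0081 (without replicate 3) to 0.096 for IRF4 to IRF8, from -0.40 to 0.087 (without replicate 1) for IRF4 to SPIB and from -0.43 to 0.049 (without replicate 3) for IRF4 to BATF, so their signs turned. That of BATF to BATF3 turned with a pseudocount of 0.1 (-0.068) or none (-0.16). The cause was not tested. In all, 329 values kept their direction and call or stayed within their spread, and 16 moved, 5 reversed, 4 crossed to a call and 9 lost one. The 329 include fitted differences that a setting could not change. They also include list medians whose sign turned, such as that of the other IRF genes (0.07, and -0.15 without replicate 3). Read numbers are unknown, so the precision of low genes such as BATF3 cannot be given.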
